A study of Mus musculus with 18 samples.

Results

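The genes of the aminoacyl-tRNA synthetases, the enzymes that attach amino acids to tRNAs, were examined in the liver of *Rps2*-A226Y mice and wild-type mice. They comprised 38 of the 22524 genes counted in each mouse. Of these, 19 encode cytosolic synthetases or their subunits, 16 encode mitochondrial synthetases and 3 (*Aimp1*, *Aimp2* and *Eef1e1*) encode scaffold proteins that hold several cytosolic synthetases in one complex. The genes were chosen by symbol and matched to Ensembl identifiers, by a rule that uses no expression value, although earlier results of these data were known when they were chosen. All 38 were found, and all 38 reached the minimum for testing (10 counts in 50% or more of the A226Y or of the WT mice), with no fewer than 55 counts in any mouse.

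The livers of 10 A226Y females and of 8 wild-type females (WT) were sequenced, all 15 months old and of the C57BL/6 strain, with 1 library per mouse. The A226Y mice are heterozygous for a mutation of the ribosomal protein gene *Rps2* that lowers the accuracy of decoding. A stop cassette flanked by loxP sites keeps the mutant allele silent until Cre recombinase removes it, and the WT mice carried the same Cre transgene, driven by the ubiquitously active CMV promoter. Removal of the cassette was incomplete in every mutant mouse, so the A226Y livers were mosaics of cells with an expressed and cells with a silent targeted allele. The targeted allele was made in embryonic stem cells of another mouse strain and then backcrossed to C57BL/6. The comparison asks how gene expression in the liver differs between these genotypes. Cells in which the targeted allele stays silent express *Rps2* from the other allele only. More decoding errors and a lower *Rps2* level thus cannot be told apart in this comparison. The paper addressed the lower *Rps2* level with mice that carry the silent allele, which are not among the mice compared here.

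Each synthetase recognises the tRNAs of 1 amino acid and charges them, so that the ribosome receives the correct amino acid for each codon. Cytosolic and mitochondrial translation use separate sets of these enzymes, almost all encoded in the nucleus by separate genes, while the glycyl and lysyl enzymes (*Gars* and *Kars*) serve both compartments from a single gene each. Several of the enzymes also edit, that is, they hydrolyse a tRNA that received the wrong amino acid, and many cytosolic synthetase genes are known targets of ATF4, the transcription factor of the amino acid response and the integrated stress response.

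Total counts ranged from 23850565 to 62126131 in the A226Y mice and from 25869192 to 34918732 in the WT mice. Levels are given as CPM (counts scaled to a common library total with the TMM method), and genes were compared with the quasi-likelihood test of edgeR, with p-values adjusted over the 13353 genes tested. *Rps2*, counted over both alleles, ranged from 46.9 to 83.0 CPM (median 72.5) in the A226Y mice and from 103.9 to 143.1 CPM (median 109.2) in the WT mice. It was lower in each A226Y mouse than in any WT mouse (log2 fold change −0.73, standard error (SE) 0.11, adjusted p = 0.000772). The hepatocyte markers were the highest of the cell type marker sets in every library, with a summed level of 64560 CPM or more. Of these 6 markers, *Cps1* was higher and *Serpina1c* lower in the A226Y mice at an adjusted p under 0.05. In bulk liver, fewer cells of a type and less RNA per cell cannot be told apart. The A226Y mouse 29 stood apart from the others: it had the lowest summed hepatocyte markers (64560 CPM, against at least 108200 in the other A226Y mice) and the highest summed levels of the Kupffer cell markers (898 CPM, against at most 603.9 in the other A226Y mice) and of the neutrophil markers (41.5 CPM, against at most 7.42 in the other A226Y mice).

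Among the 38 genes, 2 were higher and 1 was lower in the A226Y mice at an adjusted p under 0.05. Both higher genes encode cytosolic enzymes, *Gars* and *Lars*, so 2 of 19 cytosolic genes (10.5%) rose, beside 7.27% of all genes tested. No cytosolic and no mitochondrial gene fell by this criterion. The lower gene was the scaffold *Aimp1*, and over all genes tested 7.03% were lower. At these counts, the shares of the enzymes that passed were close to the shares over all genes. With 4 surrogate variables as covariates, 50 genes passed in all and none of the 38 was among them.

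By the unadjusted p-value, with which the study selected its genes, the genes under 0.05 were mostly higher among the cytosolic enzymes and all lower among the mitochondrial enzymes. In the cytosolic group 5 of 19 genes (26.3%) were higher and 1 was lower at an unadjusted p under 0.05, against 14.9% higher and 14.7% lower over all genes. With surrogate variables 2 cytosolic genes were under 0.05, *Gars* above and *Cars* below zero. The mitochondrial group had 0 of 16 genes higher and 7 of 16 (43.8%) lower. The median log2 fold change was 0.06 over the cytosolic genes, of which 12 were above zero, and −0.11 over the mitochondrial genes, of which 11 were below zero, beside a median of −0.0044 over all genes. These shares and medians describe the lists and were not tested as such. With surrogate variables the cytosolic median was −0.0022 and the mitochondrial median −0.048. The mitochondrial count at an unadjusted p under 0.05 was 2 with surrogate variables or library-size scaling and 3 with the length or the GC correction. It also rested in part on single animals, since it dropped to 4 of 16 when A226Y mouse 3, 11 or 29 or WT mouse 24 was left out.

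**Figure D1:**
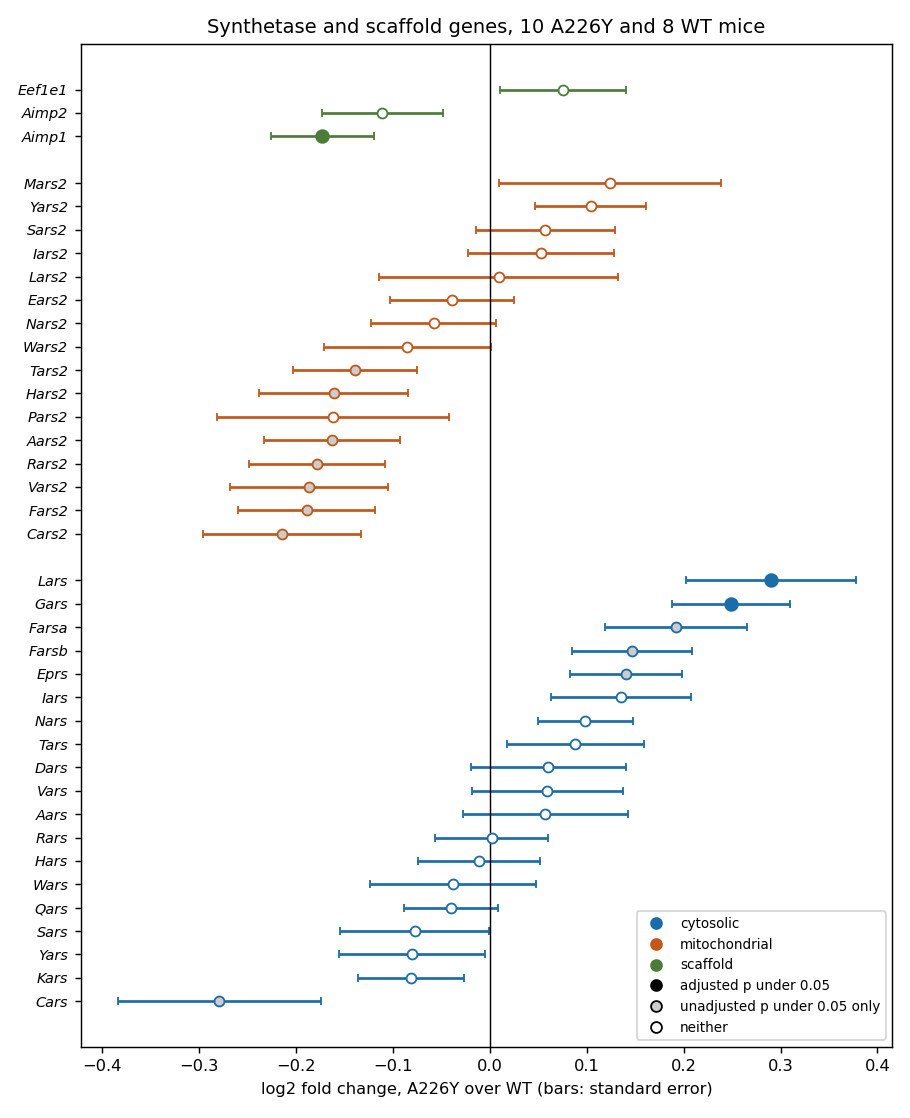
Log2 fold change of each of the 38 genes (horizontal axis, A226Y over WT, with standard errors) for the scaffold genes (top, green), the mitochondrial synthetases (middle, orange) and the cytosolic synthetases (bottom, blue). Filled points passed the adjusted threshold (*Lars*, *Gars* and *Aimp1*), grey points passed at an unadjusted p under 0.05 only, and the fold changes ran from −0.28 (*Cars*) to 0.29 (*Lars*).

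*Gars*, which encodes the glycyl-tRNA synthetase of both cytosol and mitochondria, had the clearest increase. It lies on chromosome 6 of GRCm38 from 55038007 to 55079500 (ENSMUSG00000029777, plus strand). Its level ranged from 43.1 to 61.2 CPM in the A226Y mice (median 47.4), against 37.97 to 44.2 CPM in the WT mice (median 41.0). Of the A226Y mice 9 lay above every WT mouse, and the remaining mouse lay above the WT mean. The mean rose from 41.2 ± 2.43 CPM (SD, n = 8) to 48.9 ± 5.25 CPM (SD, n = 10), an increase of 18.8% (log2 fold change 0.25, SE 0.061, adjusted p = 0.0121). A two-sided exact permutation test over the mice gave p = 0.000366, unadjusted. The increase passed the adjusted threshold with each of the 18 mice left out in turn (adjusted p from 0.00866 to 0.0269) and missed it with surrogate variables as covariates (log2 fold change 0.21, adjusted p = 0.167).

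The promoter of *Gars* was one of those in which the core of the C/EBP-ATF response element, the composite site bound by ATF4 with C/EBP proteins, was found by letter search. TGATGNAA was searched on both strands in the 250 bases before the RefSeq start (GRCm38.p6), and promoters were found for 29 of the 38 genes (those of *Cars*, *Hars*, *Lars*, *Nars*, *Rars*, *Vars*, *Wars*, *Hars2* and *Pars2* were not matched). The letters occurred in 3 of the 29 promoters (10.3%), beside 1056 of 27025 genes (3.91%) in the same table. All 3 belonged to cytosolic enzymes (3 of 12, 25.0%), namely *Gars*, *Aars* for alanine and *Tars* for threonine, and none of 14 mitochondrial and none of 3 scaffold promoters held them. The stretches around the match in *Gars* and *Tars* are shown, so that both can be compared, written 5′ to 3′ on the strand of the gene. The capitals mark the motif, which lies on the opposite strand in each and therefore reads as its reverse complement.
Gars: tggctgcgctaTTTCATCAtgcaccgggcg
Tars: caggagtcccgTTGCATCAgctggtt
They lie at chr6:55037960-55037989 on the plus strand and chr15:11399659-11399684 on the minus strand. The match begins 30 and 15 bases before the RefSeq start, respectively. A match in these letters does not show binding, and *Gars* was the only one of the 3 genes to pass the adjusted threshold: *Aars* had a log2 fold change of 0.06 (SE 0.085, adjusted p = 0.694) and *Tars* of 0.09 (SE 0.070, adjusted p = 0.422).

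*Lars*, which encodes the leucyl-tRNA synthetase, was the other cytosolic gene that rose. It is located on chromosome 18 (42202298 to 42262194, ENSMUSG00000024493, minus strand). Levels were between 25.4 and 38.1 CPM in the A226Y mice (median 29.8) and between 19.3 and 27.9 CPM in the WT mice (median 26.2). The groups overlapped slightly, with 8 of 10 A226Y mice above every WT mouse and 4 WT mice below every A226Y mouse. From 25.2 ± 3.11 CPM (SD, n = 8) in WT, the mean rose to 30.8 ± 4.31 CPM (SD, n = 10), by 22.3% (log2 fold change 0.29, SE 0.087, adjusted p = 0.0324, and unadjusted p = 0.0043 in the exact permutation test). This call was less firm than that of *Gars*. It was lost when A226Y mouse 7 or 23 or WT mouse 13, 14, 21 or 24 was left out. The log2 fold change was then 0.241 to 0.288, with an adjusted p of at most 0.0677. The call was also lost after correction for GC content (0.265, adjusted p = 0.0519) and with surrogate variables (0.129, adjusted p = 0.599).

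*Farsa* and *Farsb* encode the catalytic and the tRNA-binding subunit of the cytosolic phenylalanyl-tRNA synthetase. *Farsa* ranged from 16.2 to 23.03 CPM in the A226Y mice (median 19.3), against 15.4 to 20.02 CPM in the WT mice (median 16.4). *Farsb* ranged from 30.7 to 40.0 CPM (median 34.6) and from 27.0 to 35.4 CPM (median 32.1), respectively. For both subunits 4 A226Y mice lay above every WT mouse and 3 WT mice lay below every A226Y mouse. The log2 fold changes were 0.19 for *Farsa* (SE 0.073, adjusted p = 0.0822) and 0.15 for *Farsb* (SE 0.062, adjusted p = 0.114), with unadjusted exact permutation p-values of 0.0226 and 0.0268. Neither passed the adjusted threshold in the comparison as made, and both passed it after correction for transcript length (adjusted p = 0.0335 and 0.0354). After correction for GC content *Farsa* passed and *Farsb* did not (adjusted p = 0.0201 and 0.203), and with surrogate variables neither passed (log2 fold changes 0.03 and 0.12, adjusted p = 0.912 and 0.482). *Farsa* also passed without WT mouse 6 or A226Y mouse 15 (adjusted p = 0.0351 and 0.0479). *Farsb* has exons that overlap the neighbouring gene *Sgpp2*, so its value is less certain.

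*Eprs*, which joins the glutamyl and prolyl enzymes in a single protein, was among the most expressed. It ranged from 100.1 to 130.4 CPM in the A226Y mice (median 108.9), against 90.4 to 107.6 CPM in the WT mice (median 101.1). Of the A226Y mice, 6 lay above every WT mouse and 9 above the WT mean. Its log2 fold change was 0.14 (SE 0.058, adjusted p = 0.109, exact permutation p = 0.0148). It passed with library-size scaling (0.18, adjusted p = 0.0321) and was 0.05 with surrogate variables (adjusted p = 0.777).

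*Cars*, for cysteine, had the most negative fold change of the 38 genes and ran opposite to the other cytosolic members with a low p-value. Its level was between 14.4 and 22.6 CPM in the A226Y mice (median 18.3) and between 16.6 and 28.9 CPM in the WT mice (median 20.9). The 2 highest WT mice lay above every A226Y mouse, and 3 A226Y mice lay below every WT mouse. The log2 fold change was −0.28 (SE 0.11, adjusted p = 0.0770, exact permutation p = 0.027). The adjusted p was 0.0454 without A226Y mouse 5 and 0.0484 without WT mouse 14.

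The lysyl enzyme *Kars*, the second enzyme shared by both compartments, did not pass. It ranged from 49.1 to 66.7 CPM in the A226Y mice (median 59.2), against 58.6 to 67.3 CPM in the WT mice (median 62.5). The log2 fold change was −0.08 (SE 0.055, adjusted p = 0.334), and 5 A226Y mice lay below every WT mouse. The shared enzymes thus lay on opposite sides of zero. The remaining cytosolic genes, 12 in number, had log2 fold changes between −0.08 (*Yars*, for tyrosine) and 0.14 (*Iars*, for isoleucine), and all had an adjusted p of 0.185 or more.

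The cytosolic genes were also read by the roles of their proteins. Among the members, 7 encode enzymes held in the multisynthetase complex (*Eprs*, *Iars*, *Lars*, *Qars*, *Kars*, *Rars* and *Dars*). Of these 7, 1 rose (*Lars*, 14.3%, beside 7.27% of all genes), none fell and 5 had positive fold changes (median 0.06 on the log2 scale). Of the 12 free enzymes 1 rose (*Gars*, 8.33%), none fell and 7 had positive fold changes, with a median of 0.06. All 6 cytosolic genes listed for an editing activity (*Aars*, *Iars*, *Lars*, *Vars*, *Tars* and the *Farsb* subunit) had positive fold changes, from 0.06 to 0.29. Of the cytosolic genes as a whole 63.2% were positive, and of all genes 49.0%. *Lars* was the only one of the 6 to pass. Their mitochondrial counterparts *Aars2*, *Vars2*, *Tars2* and *Fars2* had negative fold changes (−0.16, −0.19, −0.14 and −0.19). Those of *Iars2* and *Lars2* were positive (0.05 and 0.01). The sign of *Aars* turned without A226Y mouse 29 (−0.0094), with the length correction (−0.0092) and with surrogate variables (−0.045), and that of *Vars* with surrogate variables (−0.0022). The cytosolic and mitochondrial enzymes together divide by the fold of the catalytic domain into class I and class II, with *Eprs* left out as it holds both. In each class 1 of 17 genes rose (5.88%) and 8 were positive. At an unadjusted p under 0.05, 4 were lower in each (23.5%, beside 14.7% of all genes), and 1 was higher in class I and 3 in class II (5.88% and 17.6%, beside 14.9%).

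*Wars*, the tryptophanyl enzyme, is also an interferon-gamma response gene in many cells, and it was set beside that response. *Wars* ranged from 12.6 to 20.1 CPM in the A226Y mice (median 15.6), against 13.2 to 19.9 CPM in the WT mice (median 16.3), so that the groups overlapped almost completely (log2 fold change −0.04, SE 0.086, adjusted p = 0.808). Among 16 other interferon-gamma genes, 13 fell (81.2%, beside 7.03% of all genes) and none rose (median −0.50 on the log2 scale). With surrogate variables none of the 13 passed (adjusted p of at least 0.142). The lowest p-values were those of the immunoproteasome subunit *Psmb10* (−0.79, adjusted p = 0.0020), the proteasome activator *Psme1* (−0.37, adjusted p = 0.00234), the transcription factor *Irf1* (−0.42, adjusted p = 0.00865) and the GTPase *Gbp7* (−0.87, adjusted p = 0.0142). The one positive value in that list was that of *Nlrc5*, a regulator of MHC class I genes (0.06, adjusted p = 0.801). Averaged in each mouse as log2 CPM centred on each gene, the list ranged from −0.603 to 0.416 in the A226Y mice (highest in mouse 29). In the WT mice it ranged from −0.439 to 0.697 (highest in mouse 33), so the genotypes overlapped. By this mean 9 A226Y mice lay below the WT mean and 2 below every WT mouse. The Kupffer cell marker *Clec4f* was also lower in the A226Y mice (the only one of 7 such markers that passed). The summed level of the 7 markers had a median of 339.4 CPM in the A226Y mice (lowest 255.4, highest 898) and of 576.5 CPM in the WT mice (lowest 386.6, highest 835.5), with 6 A226Y mice below every WT mouse. The part of these cells in the interferon-gamma values was not tested.

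**Figure D2:**
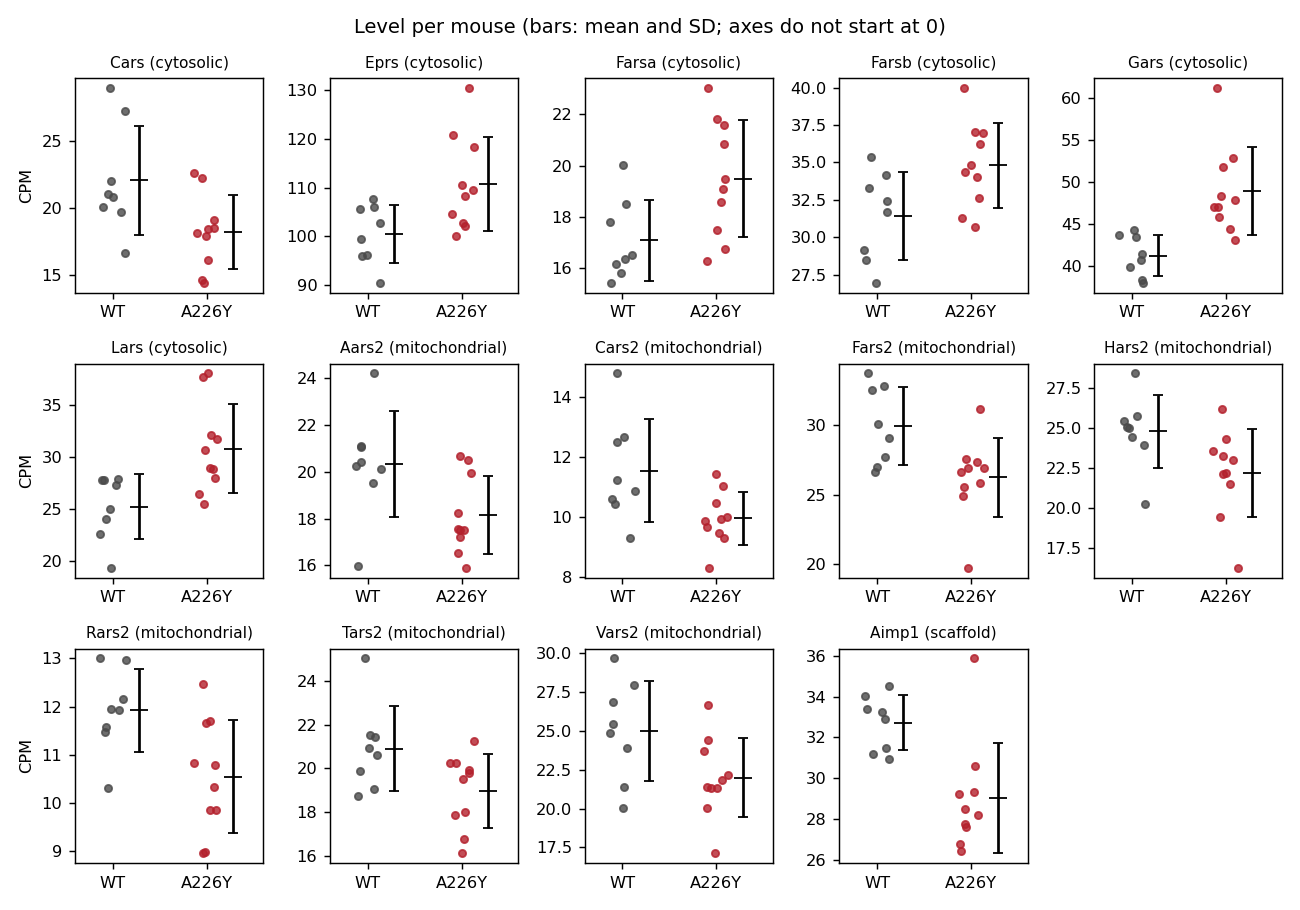
Level in CPM (vertical axes, which do not start at 0) of the 14 genes with an unadjusted p under 0.05, for each of the 8 WT mice (grey) and 10 A226Y mice (red), with the mean and SD beside the points. *Gars* and *Lars* are higher in A226Y with little overlap, and *Aimp1* is lower in all A226Y mice except mouse 5 at 35.9 CPM.

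No mitochondrial gene passed the adjusted threshold, and 7 had an unadjusted p under 0.05, all on the lower side. *Cars2*, for mitochondrial cysteine, ranged from 8.29 to 11.4 CPM in the A226Y mice (median 9.89), against 9.30 to 14.8 CPM in the WT mice (median 11.04). All 10 A226Y mice lay below the WT mean, although only 2 lay below every WT mouse. Its log2 fold change was −0.21 (SE 0.081, adjusted p = 0.0795, exact permutation p = 0.0168), and it was −0.05 with surrogate variables (adjusted p = 0.784). Without WT mouse 33 the gene passed (−0.25, adjusted p = 0.0399). *Fars2*, the single-chain mitochondrial phenylalanyl enzyme, ranged from 19.7 to 31.2 CPM in the A226Y mice (median 26.8), against 26.7 to 33.8 CPM in the WT mice (median 29.6). In this gene 5 A226Y mice lay below every WT mouse. The log2 fold change was −0.19 (SE 0.071, adjusted p = 0.0754, exact permutation p = 0.0121), opposite in sign to those of both cytosolic phenylalanyl subunits. It was −0.12 with surrogate variables and −0.12 with the GC correction (adjusted p = 0.376 and 0.355). Without A226Y mouse 23 *Fars2* passed (−0.22, adjusted p = 0.0377).

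*Rars2*, for arginine, and *Tars2*, for threonine, gave similar differences at adjusted p-values above 0.05. *Rars2* ranged from 8.96 to 12.5 CPM in the A226Y mice (median 10.5), against 10.3 to 13 CPM in the WT mice (median 11.9), and *Tars2* from 16.1 to 21.2 CPM (median 19.7) and from 18.8 to 25.0 CPM (median 20.8). For each gene 4 A226Y mice lay below every WT mouse and 9 below the WT mean. Fold changes on the log2 scale were −0.18 for *Rars2* (SE 0.070, adjusted p = 0.0923, exact permutation p = 0.0156) and −0.14 for *Tars2* (SE 0.064, adjusted p = 0.151, exact permutation p = 0.0368). After a correction for GC content *Rars2* passed (log2 fold change −0.23, adjusted p = 0.0262), whereas it did not after the length correction (−0.12, adjusted p = 0.306) or with surrogate variables (−0.25, adjusted p = 0.229). Without A226Y mouse 15 *Rars2* passed (−0.21, adjusted p = 0.0494). *Tars2* was at −0.05 with surrogate variables (adjusted p = 0.778).

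*Aars2* and *Vars2*, for alanine and valine, lie on chromosome 17, as *Rps2* does. *Aars2* was between 15.9 and 20.7 CPM in the A226Y mice (median 17.5) and between 15.9 and 24.2 CPM in the WT mice (median 20.3). *Vars2* was between 17.1 and 26.6 CPM (median 21.6) and between 20.04 and 29.7 CPM (median 25.1), respectively. The groups overlapped for both genes, with 8 and 9 of the 10 A226Y mice below the WT mean. *Aars2* had a log2 fold change of −0.16 (SE 0.070, adjusted p = 0.122, exact permutation p = 0.0362) and *Vars2* of −0.19 (SE 0.082, adjusted p = 0.130, exact permutation p = 0.0466). With surrogate variables the values were −0.09 and −0.26 (adjusted p = 0.570 and 0.117), and with the GC correction −0.09 and −0.11 (adjusted p = 0.405 and 0.428). Without WT mouse 33 *Aars2* passed (−0.21, adjusted p = 0.0372). Their distances from *Rps2* are 20.8 Mb and 10.9 Mb, and the cytosolic gene *Vars* (log2 fold change 0.06, adjusted p = 0.652) lies close to *Vars2* at 10.3 Mb. Whether the A226Y mice kept sequence of that other strain at these genes was not tested.

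*Hars2*, for histidine, ranged from 16.2 to 26.2 CPM in the A226Y mice (median 22.6), against 20.3 to 28.4 CPM in the WT mice (median 25.0). Of the A226Y mice 9 lay below the WT mean and 2 below every WT mouse (log2 fold change −0.16, SE 0.077, adjusted p = 0.165, exact permutation p = 0.0496). *Hars2* starts back to back with the cytosolic *Hars*, with start sites 197 bases apart on opposite strands, and the annotated exons of both overlap. *Hars* itself had a log2 fold change of −0.01 (SE 0.063, adjusted p = 0.925). Overlapping exons also concern *Cars2* (with *Naxd*) and *Fars2* (with *Lyrm4* and *Nrn1*), as well as *Ears2* (with *Ubfd1*) and *Iars2* (with *Rab3gap2*), so these 5 mitochondrial values are less certain than the others.

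The other 9 mitochondrial genes had log2 fold changes between −0.16 (*Pars2*, for proline) and 0.12 (*Mars2*, for methionine). The widest spread was that of *Lars2*, for leucine, which ranged from 48.4 to 112.8 CPM in the A226Y mice (median 75.4), against 65.3 to 88.6 CPM in the WT mice (median 74.9). Its A226Y mice thus lay on both sides of the WT range, 4 below and 2 above it, and the log2 fold change was 0.01 (SE 0.12, adjusted p = 0.970). *Mars2* ranged from 4.53 to 7.27 CPM in the A226Y mice (median 5.51), against 4.21 to 6.85 CPM in the WT mice (median 5.24). Its log2 fold change was 0.12 (SE 0.11, adjusted p = 0.496).

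Of the scaffold genes, *Aimp1* fell. The protein is a structural and tRNA-binding subunit of the multisynthetase complex and the precursor of a secreted cytokine, and the gene lies on chromosome 3 (132660499 to 132684370, ENSMUSG00000028029, minus strand). Its level ranged from 26.4 to 35.9 CPM in the A226Y mice (median 28.3), against 30.9 to 34.54 CPM in the WT mice (median 33.1). A total of 9 A226Y mice lay below every WT mouse, whereas A226Y mouse 5 lay above every WT mouse. The mean fell from 32.7 ± 1.35 CPM (SD, n = 8) to 29.03 ± 2.71 CPM (SD, n = 10) (log2 fold change −0.17, SE 0.053, adjusted p = 0.0355, exact permutation p = 0.00347). Leaving out any of 11 single mice (A226Y mouse 3, 7, 11, 15, 18, 22 or 32, or WT mouse 4, 13, 24 or 28) moved the adjusted p above the threshold, to at most 0.0610. The log2 fold change was then still −0.158 to −0.174. Leaving out mouse 5 lowered the adjusted p to 0.00423. The call was also lost with a correction for transcript length (log2 fold change −0.10, adjusted p = 0.223), library-size scaling (−0.13, adjusted p = 0.131), surrogate variables (−0.15, adjusted p = 0.337) and no filter beyond 1 count (−0.17, adjusted p = 0.0516).

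The other scaffold genes did not pass. *Aimp2*, which organises the complex around the lysyl enzyme, ranged from 8.68 to 12.8 CPM in the A226Y mice (median 10.9), against 11.3 to 12.3 CPM in the WT mice (median 11.7). A total of 8 A226Y mice lay below every WT mouse and 1 above, and the log2 fold change was −0.11 (SE 0.062, adjusted p = 0.238). *Eef1e1*, which encodes the smallest of the scaffold proteins, had a log2 fold change of 0.08 (SE 0.065, adjusted p = 0.463). *Aimp1* and *Aimp2* both have exons that overlap another gene (*Tbck* and *Eif2ak1*), while *Eef1e1* does not.

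**Figure D3:**
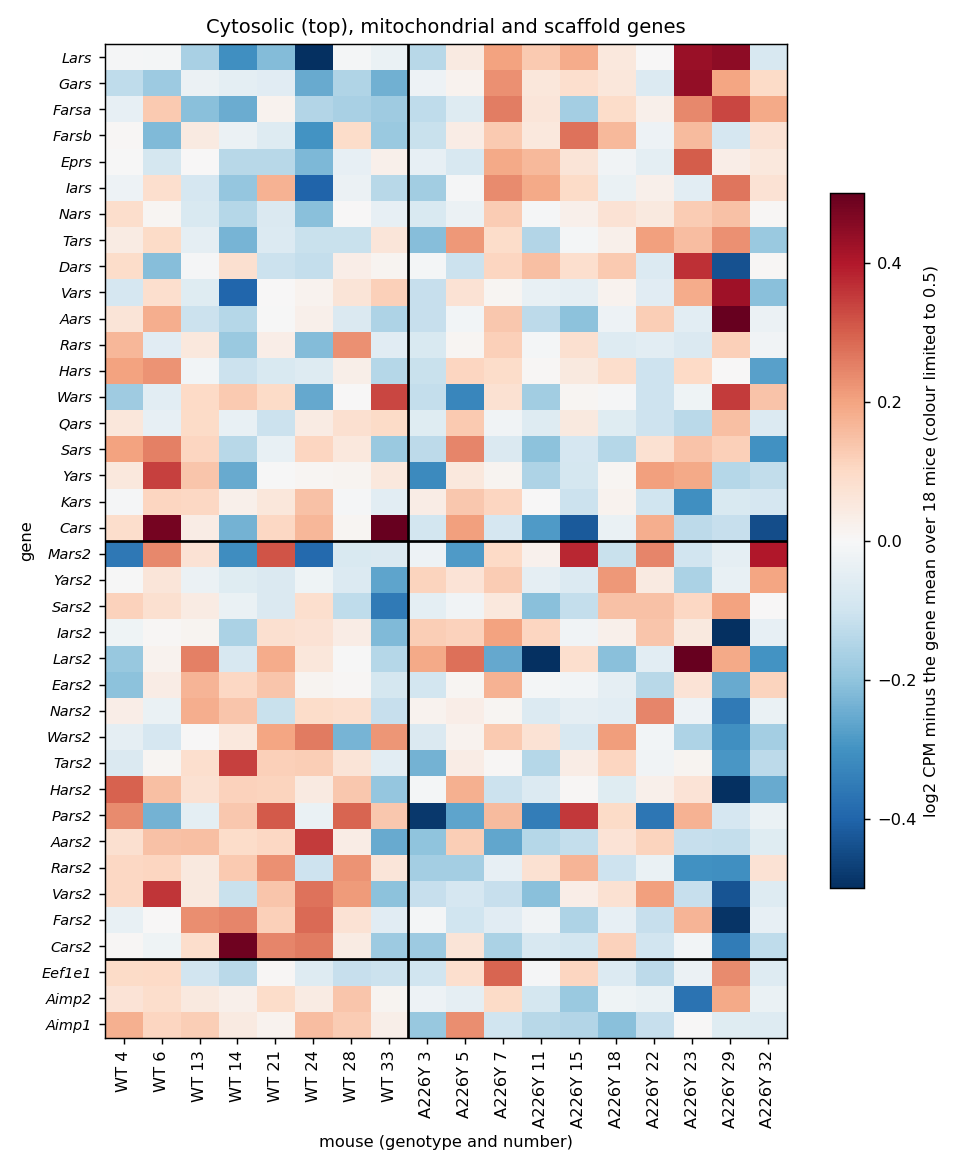
Log2 CPM of each gene (rows) in each mouse (columns, 8 WT then 10 A226Y), as the difference from the mean of that gene over the 18 mice, with colours limited at 0.5 on either side. A226Y mouse 29 has high values for many cytosolic genes and low values for many mitochondrial genes, and WT mice 14 and 24 have low values for many cytosolic genes.

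Both enzyme groups were then averaged in each mouse, as the mean of the log2 CPM centred on each gene. The cytosolic mean had a median of 0.0128 in the A226Y mice (lowest −0.106, highest 0.131) and of −0.0069 in the WT mice (lowest −0.137, highest 0.059). The mitochondrial mean had a median of −0.0010 in the A226Y mice (lowest −0.229, highest 0.0268) and of 0.0601 in the WT mice (lowest −0.111, highest 0.126). All 10 A226Y mice lay below the WT mean for the mitochondrial genes and 8 of 10 lay above it for the cytosolic genes, but the ranges of the genotypes overlapped in both. The lowest WT value for the mitochondrial genes was that of mouse 33, which also had the highest summed hepatocyte, Kupffer cell, B cell, T cell, erythroid and neutrophil markers of the WT mice (167500, 835.5, 88.9, 8.71, 764.2 and 16.1 CPM), and the part of these cells in its values was not tested.

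The difference between both means was taken within each mouse, so that the scaling of the library cancels. Its median was 0.0123 in the A226Y mice (lowest −0.0323, highest 0.360) and −0.0671 in the WT mice (lowest −0.207, highest 0.103). All 10 A226Y mice lay above the WT mean, yet only 2 lay above every WT mouse. The highest value was that of A226Y mouse 29, which had both the highest cytosolic and the lowest mitochondrial mean of all mice. Without mouse 29 the median log2 fold change was 0.0091 over the cytosolic genes and −0.086 over the mitochondrial genes. With all mice these medians were 0.06 and −0.11. Both thus lay closer to zero without this mouse, the cytosolic one nearly at zero, and neither changed its sign. The part in these values of the high Kupffer cell and neutrophil markers of mouse 29 was not tested.

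**Figure D4:**
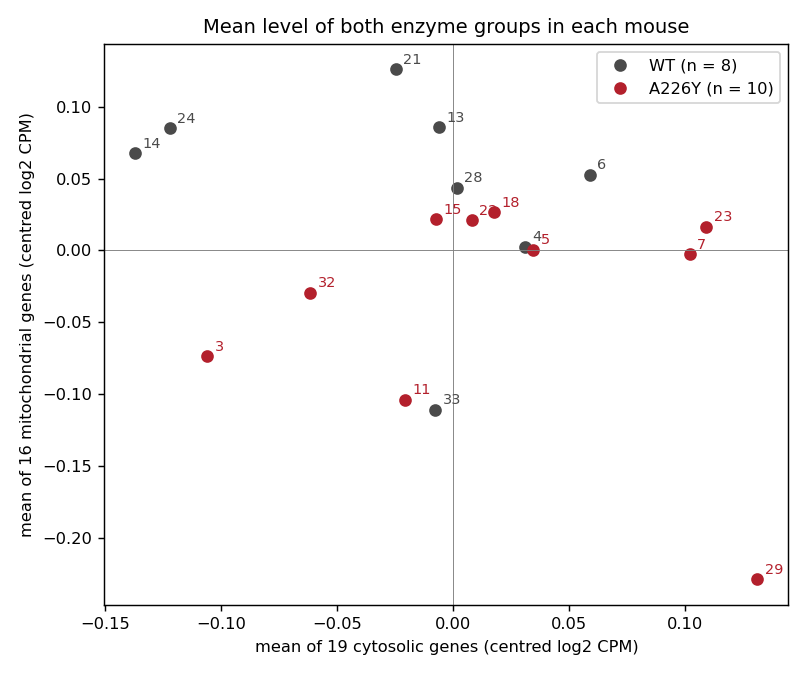
Mean of the 19 cytosolic genes (horizontal axis) against the mean of the 16 mitochondrial genes (vertical axis), both as centred log2 CPM, for each WT (grey) and A226Y (red) mouse, labelled with its number. The genotypes overlap, A226Y mice lie at or below 0.0268 on the vertical axis, and A226Y mouse 29 lies apart at 0.131 and −0.229.

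Where an amino acid has separate cytosolic and mitochondrial genes, the members can be read in pairs. There were 15 pairs, with *Eprs* in 2 of them (with *Ears2* for glutamate and with *Pars2* for proline) and *Farsa* paired with *Fars2*. In 12 of the 15 pairs the log2 fold change of the cytosolic gene was the higher one, and in 9 of 15 with surrogate variables. The widest gap was that of *Farsa* over *Fars2* (0.38 on the log2 scale), followed by *Eprs* over *Pars2* (0.30) and *Lars* over *Lars2* (0.28). With surrogate variables these gaps were 0.145, 0.29 and −0.0199, so the last one turned its sign. The exceptions were the pairs for tyrosine (*Yars* below *Yars2* by 0.18), serine (*Sars* below *Sars2* by 0.14) and cysteine, in which both genes had negative fold changes (*Cars* −0.28, *Cars2* −0.21).

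The groups also differed in level. As CPM per kilobase of the longest coding transcript, the median level in WT mice was 15.5 over the cytosolic genes, 6.07 over the mitochondrial genes and 9.88 over the scaffold genes. The cytosolic genes ran from 5.70 (*Wars*) to 38.7 (*Dars*, for aspartate), and the mitochondrial genes from 0.471 (*Mars2*) to 19.4 (*Lars2*). The value of *Mars2* rests on a transcript of 11294 bases. By CPM alone *Pars2* and *Wars2* were lower (WT means 2.99 and 4.64, against 5.33 for *Mars2*). *Dars* ranged from 63.3 to 110.3 CPM in the A226Y mice (median 88.4), against 73.8 to 91.3 CPM in the WT mice (median 85.8), without a difference that passed (log2 fold change 0.06, SE 0.080, adjusted p = 0.653). In 12 of the 15 pairs the cytosolic gene was the more expressed per kilobase, with a median ratio of 2.41. The ratio reached 20.9 for *Eprs* over *Pars2*, and it was below 1 for leucine (0.327), isoleucine (0.433) and phenylalanine (0.663).

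The members often lay back to back with another gene. A start site on the opposite strand within 1000 bases was found for 11 of the 38 genes (28.9%), beside 2115 of 13305 tested genes with a position (15.9%). The nearest was that of *Rars2* and *Orc3*, a subunit of the origin recognition complex, at 13 bases. None of the partners passed the adjusted threshold, and the partners of the unadjusted mitochondrial members *Rars2* and *Fars2* had positive fold changes (*Orc3* 0.10, *Lyrm4* 0.10), while that of *Hars2* had a fold change near zero (*Hars* −0.01). *Aimp1* shares such a start region with *Tbck*, and *Tbck* had a log2 fold change of −0.01 (adjusted p = 0.940).

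The neighbouring steps of the pathway were read from lists of their own. The cytosolic methionyl enzyme *Mars*, which is not among the 38 genes, had a log2 fold change of 0.06 (adjusted p = 0.708). Of 15 genes that assist or correct tRNA charging, 1 fell and 1 rose. *Gatb*, a subunit of the enzyme that forms glutaminyl-tRNA in mitochondria, ranged from 16.98 to 32.9 CPM in the A226Y mice (median 26.3), against 26.2 to 42.3 CPM in the WT mice (median 34.8). All 10 A226Y mice lay below its WT mean (log2 fold change −0.39, SE 0.12, adjusted p = 0.037, and 0.565 with surrogate variables).

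Of the 8 elongation factors that deliver charged tRNA to the ribosome or act with those factors, 3 fell and none rose (37.5% lower, beside 7.03% of all genes). *Eef1a1*, which carries charged tRNA to the cytosolic ribosome, ranged from 911.6 to 1351 CPM in the A226Y mice (median 1079), against 1233 to 1350 CPM in the WT mice (median 1315). It was below every WT mouse in 8 of 10 A226Y mice (log2 fold change −0.25, SE 0.071, adjusted p = 0.0234). *Tufm*, its mitochondrial counterpart, ranged from 7.70 to 9.37 CPM in the A226Y mice (median 8.40), against 8.99 to 13.4 CPM in the WT mice (median 10.1). Its 10 A226Y mice all lay below the WT mean (log2 fold change −0.30, SE 0.076, adjusted p = 0.013). The exchange factor subunit *Eef1d* also fell (log2 fold change −0.21, adjusted p = 0.045), with exons that overlap *Naprt*. With surrogate variables none of the 3 passed (adjusted p of at least 0.301).

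Uncharged tRNA is sensed by the kinase GCN2 (*Eif2ak4*), which acts through ATF4. Of 26 genes of this pathway 23 were tested (*Phgdh*, *Pycr1* and *Slc7a11* had too few counts). In this list 2 genes rose and 2 fell (8.7% each, beside 7.27% and 7.03% of all genes), and the median log2 fold change was 0.01. None of the 4 passed with surrogate variables (adjusted p of at least 0.117). Neither *Eif2ak4* (−0.06, adjusted p = 0.683) nor *Atf4* (0.03, adjusted p = 0.822) passed. The genes that rose were *Trib3*, a pseudokinase induced by ATF4 (0.82, adjusted p = 0.0476), and *Atf5*, a related transcription factor (0.51, adjusted p = 0.0402). Those that fell were *Chac1*, which degrades glutathione (−1.10, adjusted p = 0.0234), and *Shmt2*, the mitochondrial serine hydroxymethyltransferase (−0.43, adjusted p = 0.00159). *Shmt2* ranged from 139.5 to 169.5 CPM in the A226Y mice (median 149.6), against 170.0 to 233.8 CPM in the WT mice (median 203.8), without overlap between the groups. The exons of *Atf5* and *Shmt2* overlap those of *Il4i1* and *Ndufa4l2*. The list thus held as many genes that rose as genes that fell.

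**Figure D5:**
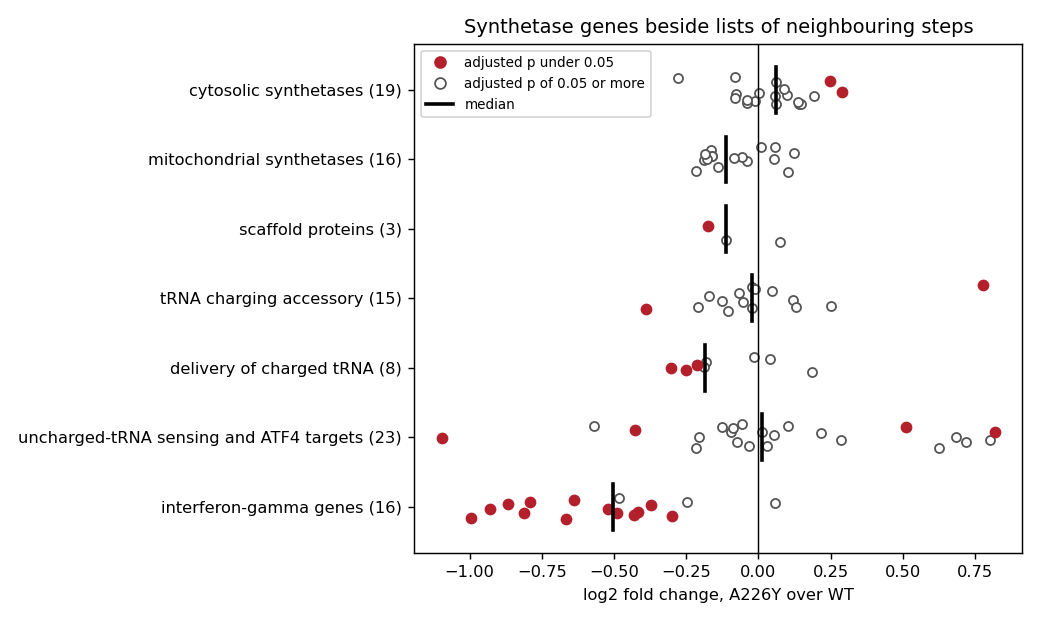
Log2 fold change (horizontal axis, A226Y over WT) of the genes in each list (rows, with the number of genes tested), with the median as a bar and genes at an adjusted p under 0.05 filled. The synthetase genes lie within 0.3 of zero, the interferon-gamma genes lie mostly to the left with a median of −0.50, and the delivery factors include 3 lower genes.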

How the data were processed

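The authors deposited, for each of 18 mice, whole-number read counts per Ensembl gene, not normalized. The paper's methods describe quantification with RSEM and an Ensembl annotation, whereas the processing notes of the labels name bcl2fastq, fastp, STAR, featureCounts, MultiQC and the build GRCm38. Which of these made the counts is not given in the sources used here. Of 22524 identifiers 22291 were found in GENCODE M21 (GRCm38), which gave positions and lengths. Genes that reached 10 counts in 50% or more of the A226Y or of the WT mice were tested (13353 genes) with edgeR 4.0.16 (R 4.3.3), TMM scaling and the two-sided quasi-likelihood test without covariates, with Benjamini-Hochberg adjustment over all of them. The permutation test compared mean log2 CPM (prior count 2) over all 43758 divisions of the mice into 10 and 8, with a smallest possible p of 2.29e-05, and its p-values are unadjusted. Libraries of the same genotype differed by more than sampling noise (chi-square per degree of freedom of at least 20.1 for each pair), so the spread between mice set the precision.

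Alternatives were RLE, upper-quartile and library-size scaling, other filters, DESeq2 1.42.0, limma-voom (limma 3.58.1), 4 surrogate variables (sva 3.50.0), a lowess offset for the length or the GC content of transcripts, fitted in each library (known for 13300 genes; pseudocount 0.5, span 0.3, 3 iterations), and leaving out each mouse. The procedures were tested on simulated data. Genes were described in full if their adjusted p was under 0.05 or, since fewer than 4 were, if their unadjusted p was. Added to these were the highest and lowest level per length in either enzyme group, *Kars* and *Rps2*. From each further list at most 4 genes with the lowest p-values were named, and other genes named there were chosen after their values were seen. The 38 genes and all lists were chosen with earlier results of these data known. Since it is not given which program made the counts, how reads in overlapping exons of neighbouring genes were assigned is not known here. Proteins of the members were not used here. Some genes and sequences are not reported here.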

Additional observations from a re-analysis of the deposited data

Results flagged for a closer look

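Of 76 groups tested (38 genes in both genotypes), 7 held a mouse that lay far from the others by Dixon's criterion, which chance alone meets in about 1 of 20 groups. Of these, 4 concerned A226Y mouse 29. Its level of *Aars* was 297 CPM, where the other A226Y mice lay between 179 and 226.4 CPM. Its levels of 3 mitochondrial genes were the lowest: *Fars2* at 19.7 CPM (others 24.9 to 31.2), *Iars2* at 58.2 CPM (others 80.1 to 94.8) and *Nars2* at 12.9 CPM (others 15.7 to 19.5). A226Y mouse 5 had the highest level of *Aimp1*, at 35.9 CPM (others 26.4 to 30.6). Among the WT mice, *Vars* was lowest in mouse 14 at 29.9 CPM (others 37.1 to 42.7) and *Yars2* was lowest in mouse 33 at 15.4 CPM (others 17.6 to 19.3).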

How the results depend on the processing

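For the 14 genes described by p-value and *Kars*, no fold change reversed its sign under the 10 alternatives or with a mouse left out. Of 150 such values under the alternatives, 7 lost and 5 gained the adjusted threshold, and with 1 mouse left out 17 and 8 of 270 did. The 14 genes were chosen by a low p-value in these same data, so stable signs were likely in advance and say little about the other members. Some of those did turn with surrogate variables, such as *Aars* (−0.045), *Mars2* (−0.063) and *Eef1e1* (−0.021). With surrogate variables 50 genes passed in all, no cytosolic and no scaffold gene among them (0 and 0), 2 cytosolic and 2 mitochondrial genes had an unadjusted p under 0.05, and the cytosolic median was −0.0022. With the length offset 4 cytosolic and 0 scaffold genes passed, and 3 mitochondrial genes had an unadjusted p under 0.05. With the GC offset 1 mitochondrial gene passed, and 3 had an unadjusted p under 0.05. With library-size scaling, which shifted the median of all genes to 0.0387 and made 67.9% of the 2059 passing genes higher (50.8% of 1910 with TMM), *Gars*, *Lars* and *Eprs* passed, 0 scaffold genes did, and 2 mitochondrial genes had an unadjusted p under 0.05. Without a filter beyond 1 count 0 scaffold genes passed. The causes were not tested. With 1 mouse left out at a time, between 1255 (without WT mouse 14) and 2560 genes passed in all. The passing cytosolic genes then numbered 1 to 3, the mitochondrial 0 to 2 and the scaffold genes 0 to 1. Counts at an unadjusted p under 0.05 were 4 to 8 for the cytosolic and 4 to 8 for the mitochondrial genes, and the medians 0.0091 to 0.0752 and −0.136 to −0.086. No paired analysis was possible because each mouse number occurs in 1 genotype only. Depth limits these genes little, since the least counted had 55 counts.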
